A study of Homo sapiens with 18 samples.

Results

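The difference from parental cells shared by 2 single-cell clones of the pancreatic ductal adenocarcinoma line Panc1 was read from 9 RNA-seq libraries. These were 3 of parental Panc1, 3 of Panc1 Holoclone cells and 3 of Panc1 Paraclone cells. Whether cloning itself caused the difference was not tested. A gene was taken as a member when all 6 clone libraries lay above, or all 6 lay below, the 3 parental libraries on the log2(TPM + 1) scale, where TPM is the abundance of a transcript scaled to library total and transcript length. Of the 40266 gene symbols measured, 1702 met this rule, 461 with the clones above and 1241 with the clones below. Of these, 1385 reached at least 1 TPM in at least 3 of the 18 libraries of the series and could be tested, 415 above and 970 below.

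Panc1 is a mesenchymal-like line grown from a primary tumour, and Panc89, the other line of the series, is an epithelial line from a lymph node metastasis. In each line a Holoclone (cells growing in tight colonies, taken as rich in cancer stem cells) and a Paraclone (dispersed, larger cells, taken as non-stem cells) had been raised from single cells. Each clone group is therefore 1 clone (in Panc1, clone 9 for the Holoclone and clone 5 for the Paraclone), and the 3 replicates are cell passages, so the p-values below describe the spread between passages of these clones and not between independent clonings. All groups carried no treatment and were grown in the same culture medium.

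A cell line in culture is a mixture of cells that differ in their genome and in heritable states of their genes. A clone holds the descendants of 1 cell from that mixture. A level in the parental line is thus a mean over many lineages, while a level in a clone belongs to a single lineage. In bulk RNA, fewer cells that express a gene and less RNA per cell cannot be told apart.

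The summed TPM of the 18 libraries ranged from 985339 to 988066, and the read depth was unknown because the values carry no counts. In the Panc1 libraries 12932 to 13686 genes reached 1 TPM, and between 5.74% and 9.44% of the summed TPM came from genes of the mitochondrial genome. Parental replicate 2 correlated with the other parental libraries at 0.975 and 0.977 (Pearson across tested genes), whereas those correlated with each other at 0.987. Without parental replicate 2, the members numbered 854 above and 1544 below. Without parental replicate 3 they numbered 521 above and 1655 below.

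The mesenchymal-like label held for vimentin (VIM, 2021 to 5044 TPM in the 9 Panc1 libraries) and ZEB1 (12.7 to 18.1 TPM), while fibronectin (FN1) stayed at or below 0.697 TPM. For other mesenchymal markers the label depended on the group. CDH2 was at 4.35 to 5.28 TPM in parental, 11.5 to 16.3 TPM in Holoclone and 1.09 to 1.82 TPM in Paraclone cells. SPARC was at 608 to 1072 TPM in parental, 1.71 to 2.77 TPM in Holoclone and 60 to 78.5 TPM in Paraclone cells. Of the epithelial markers, CLDN7 (47.9 to 174 TPM) and EPCAM (1.28 to 31.5 TPM) were present, and GRHL2 did not exceed 0.391 TPM. EPCAM was at 8.91 to 12.5 TPM in parental, 27.2 to 31.5 TPM in Holoclone and 1.28 to 2.3 TPM in Paraclone cells. CDH1 did not exceed 3.51 TPM and ESRP1 did not exceed 2.19 TPM. Of the defining markers of other cell types, PTPRC, CD3E, LYZ, PECAM1, CDH5 and TEK all lay at or below 0.215 TPM. The summed level of a longer list of 14 leukocyte markers was 90 to 98.3 TPM in parental cells, 53.2 to 70.2 TPM in Holoclone cells and 125 to 151 TPM in Paraclone cells, with 12 of the 14 under 1 TPM in every Panc1 library. Of 10 fibroblast markers 8 were under 1 TPM throughout, and their sum was 12.8 to 14.9 TPM in parental, 6.99 to 10.8 TPM in Holoclone and 1.44 to 1.74 TPM in Paraclone cells.

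The clones lay below the parental line more often than above it. The Panc1 clone difference, defined throughout as the mean of the Holoclone and Paraclone means minus the parental mean of log2(TPM + 1), had a median of -0.59 over the 970 members below and of 0.53 over the 415 members above. The quartiles were -0.93 and -0.41 below and 0.37 and 0.74 above, and 208 members below and 51 above differed by more than 1. Across the 16093 genes tested the median was -0.06.

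Across all genes, limma's moderated test with trend (Benjamini-Hochberg adjusted p under 0.05) called 610 genes higher (3.79%) and 1275 lower (7.92%) in the clones. The share of higher calls was 32.4% with the deposited scaling, 44.4% with upper quartile scaling and 51.3% with median-of-ratios scaling, so the excess of lower over higher calls depended on how the libraries were scaled. The members were 2.58% (above) and 6.03% (below) of the genes tested, 424 and 776 genes with upper quartile scaling, and 651 and 752 with median-of-ratios scaling. Without parental replicate 1, the calls fell from 1885 to 1108.

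The mean over the clones can be moved by 1 clone alone. Of the 1885 genes called, 986 were not members, since the clone libraries did not all lie on 1 side of the parental range. Type IV collagen chain COL4A2 is an example, at 1.42, 0.822 and 0.54 TPM in parental, 0.321, 0.796 and 0.546 TPM in Holoclone and 23.9, 22.8 and 22 TPM in Paraclone cells. When each clone was tested on its own, 471 genes passed against parental in both clones in the same direction (118 higher, 353 lower), and 457 of these were members.

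The edge of the rule was set by very small distances. TAF10 was just inside, with 320.5, 333 and 306 TPM in parental against a lowest clone value of 334 TPM, and GLG1 was just outside, with a highest parental value of 49 TPM against a lowest clone value of 48.9 TPM. On the lower side, ZNF776 was just inside (9.88 TPM in both the lowest parental and the highest clone library, to 3 digits) and FAM217B just outside (11.6 TPM in both).

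Parental Panc1 also lay wholly between its clones in many genes. A parental group wholly below Holoclone and wholly above Paraclone libraries was found for 1025 genes (6.37%) and the opposite order for 402 genes (2.5%), beside the 1385 members in which it lay outside both. Holoclone and Paraclone cells themselves differed in 37.3% of all tested genes, of which 73.3% were higher in Holoclone cells with the deposited scaling and 46.8% with median-of-ratios scaling. Among members, which the rule selects for clones on the same side, 117 of the 415 above (28.2%) and 263 of the 970 below (27.1%) still differed between the clones. Of the members below, 216 were higher in Holoclone and 47 higher in Paraclone cells, and in 67.4% of them the Paraclone lay farther from parental, against 61.1% of all genes and 54.7% of the members above. These orders, counts and shares are given with the deposited scaling only. Under it the median over all genes was 0.01 for Holoclone and -0.17 for Paraclone against parental, and how much scaling contributes to them was not tested.

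SPARC, a secreted matrix-binding glycoprotein, had the largest difference of the genes named here. It was at 984, 608 and 1072 TPM in parental cells, 2.77, 2.6 and 1.71 TPM in Holoclone cells and 78.5, 60 and 67.2 TPM in Paraclone cells. Every clone library was thus far below every parental library, and the Holoclone was the lower of the clones. The difference was -5.83 ± 0.17 (SE, n = 3 per group). SPARC lies at chr5:151661096-151686975 (GRCh38, minus strand), and no Panc89 library exceeded 0.469 TPM.

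HOXC12, a homeobox transcription factor of the 5′ end of the HOXC cluster, was below 1 TPM in every clone library. Parental cells had 48.3, 50.8 and 41.5 TPM, Holoclone cells 0.322, 0.12 and 0.332 TPM and Paraclone cells 0.0693, 0.0491 and 0.0477 TPM (difference -5.37 ± 0.1). The neighbouring long non-coding RNA HOTAIR, which is transcribed antisense to the cluster, went from 57.8, 68.1 and 38.2 TPM to 19.1 to 21 TPM in Holoclone and 14.5 to 24.1 TPM in Paraclone cells. HOXC11 was next to them and differed least, at 12.9 to 15.2 TPM in parental and 9.02 to 12.5 TPM in the clones, and HOXC10 overlapped between the groups. HOTAIR (chr12:53962308-53974956, minus strand) and HOXC11 (chr12:53973126-53977643, plus strand) overlap in position, which leaves the assignment of their shared sequence to the quantifier.

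Insulin-like growth factor binding proteins, which hold growth factor in the extracellular space, moved in opposite directions. IGFBP2 was at 141, 176 and 153 TPM in parental, 11.9, 23.1 and 14.8 TPM in Holoclone and 0.877, 0.902 and 0.759 TPM in Paraclone cells. IGFBP4 was at 9.93, 16.1 and 12.4 TPM in parental, 23.5, 28 and 20.2 TPM in Holoclone and 184, 109 and 84.1 TPM in Paraclone cells. For both genes the Paraclone lay farther from parental than the Holoclone did.

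Other genes among the 10 lowest were enzymes, receptors and secreted proteins. The carboxylesterase CES1 went from 46.9, 50.1 and 69.9 TPM in parental to at most 0.354 TPM in Holoclone and 5.3 TPM in Paraclone cells. TNFRSF9 (4-1BB, a co-stimulatory receptor) had 45.8, 19.9 and 42.4 TPM in parental and 0.521 to 1.9 TPM in all 6 clone libraries, and C1QTNF12, a secreted C1q-related protein, had 77.3, 83.2 and 83 TPM against 5.99 to 10.2 TPM. The clones of these last genes differed from each other by less than 0.5 on the log2 scale. The neuropeptide precursor NPW (44.4, 60 and 51.1 TPM in parental, 1.58 to 4.75 TPM in the clones) and the germ cell alkaline phosphatase ALPG (22, 9.38 and 22 TPM in parental, 2.4 to 4.59 TPM in Holoclone, at most 0.0792 TPM in Paraclone cells) completed the 10 lowest together with IFITM1 and NES.

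Nestin (NES), an intermediate filament protein that the study used as a stem cell marker, was lower in both clones. Parental cells had 125, 152 and 91.3 TPM, Holoclone cells 30.5, 21.8 and 31.3 TPM and Paraclone cells 8, 4.17 and 4.04 TPM, so the order was parental above Holoclone above Paraclone with no overlap. The difference was -3.19 ± 0.25. Of the 8 markers the study followed (NES, SOX2, OVOL2, CDH1, L1CAM, VIM, ZEB1 and ZEB2), NES was the only member, and the other 7 did not pass the test, with differences of -0.21 (VIM) to 0.32 (L1CAM). A small mean could hide clones that lay on opposite sides of parental. This held for VIM (-0.62 for Holoclone and 0.19 for Paraclone), CDH1 (-0.23 and 0.72), ZEB2 (0.25 and -0.25) and OVOL2 (0.26 and -0.25). In L1CAM, SOX2 and ZEB1 both clone means lay on the same side of parental. SOX2 passed when the Panc1 libraries alone were fitted (0.19, adjusted p = 0.0321 in limma). SOX2 did not exceed 0.376 TPM in Panc1 libraries.

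The genes that were higher in both clones were led by CCL2, the chemokine that attracts monocytes. Its levels were 37.6, 19.4 and 30.3 TPM in parental, 121, 126 and 108 TPM in Holoclone and 1106, 642 and 579 TPM in Paraclone cells. The 3 groups did not overlap, and the difference was 3.35 ± 0.19. The calcium channel subunit CACNA2D1 rose from 1.85 to 3.03 TPM in parental to 21.9 to 23.3 TPM in Holoclone and 32.7 to 48 TPM in Paraclone cells.

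In most of the other genes with the highest differences the Holoclone was nearer to parental than the Paraclone. The long pentraxin PTX3 was at 5.62 to 11.2 TPM in parental, 25.2 to 30.7 TPM in Holoclone and 101 to 176 TPM in Paraclone cells. The neutrophil chemokine CXCL1 was at 5.11 to 9.77 TPM, 13.3 to 16.7 TPM and 48.7 to 99.8 TPM. SEMA3A, a secreted axon guidance cue, was at 4.04 to 6.54 TPM, 6.84 to 9.66 TPM and 36.2 to 41.3 TPM. TNFAIP2, a gene induced by tumour necrosis factor, was alike in the clones, at 97.4 to 113 TPM in parental, 276 to 329.7 TPM in Holoclone and 356 to 373 TPM in Paraclone cells. C15orf48 (differences of 0.76 for Holoclone and 3.11 for Paraclone) and LRATD2 (0.69 and 2.61) closed the group.

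**Figure D1:**
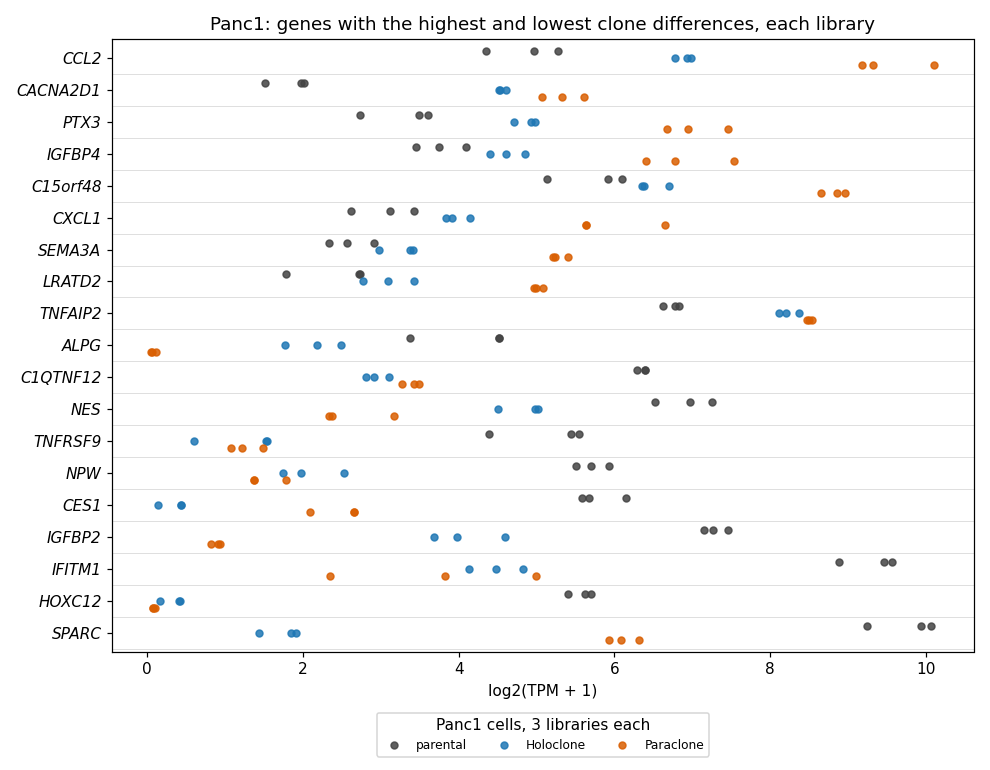
Levels of the 9 genes described above with the highest and the 10 with the lowest Panc1 clone difference, as log2(TPM + 1) on the horizontal axis, with 1 point per library and 3 libraries for each of parental, Holoclone and Paraclone cells. In each gene the 6 clone points lie on 1 side of the 3 parental points, by a wide margin for SPARC (difference -5.83) and HOXC12 (-5.37) and narrowly for LRATD2 and SEMA3A in the Holoclone.

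The interferon-induced transmembrane proteins restrict the entry of enveloped viruses, and IFITM1, IFITM2 and IFITM3 lie side by side on chromosome 11. All were lower in the clones. IFITM1 was at 756, 472 and 706 TPM in parental, 27.3, 21.4 and 16.6 TPM in Holoclone and 4.07, 13.2 and 30.9 TPM in Paraclone cells (difference -5.2 ± 0.43). IFITM2 was at 486, 399 and 483 TPM in parental, 80.4 to 103 TPM in Holoclone and 42.1 to 93.5 TPM in Paraclone cells. IFITM3 was the most abundant and changed least, at 2116 to 2394 TPM in parental, 856 to 1084 TPM in Holoclone and 1265 to 1565 TPM in Paraclone cells. The coding sequences of the family are close to each other, so part of the reads of these genes may have been shared between them by the quantifier.

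Other interferon-stimulated genes did not follow to this extent. Of a list of 39, OASL was the 1 that passed (lower, -1.64 ± 0.48, adjusted p = 0.0387 in limma) and 38 did not pass. It was not a member, since the clones (5.48 to 29.3 TPM) overlapped the parental range (27 to 74.8 TPM). OASL lost its call with upper quartile and with median-of-ratios scaling, as no gene of this list was called with either. There were 5 members below (12.8%, against 6.03% of all genes) and 1 above (2.56%, near the 2.58% of all genes). The median of the list was -0.2. XAF1, a pro-apoptotic gene induced by interferon, was among the members below, at 2.98 to 4.2 TPM in parental and 0.834 to 2.1 TPM in the clones (adjusted p = 0.186). In Panc89 it was at 25.1 to 89.8 TPM in parental and 1.28 to 14 TPM in the clones (-3.6 ± 0.43, adjusted p = 3.58e-05).

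The 250 bases before the RefSeq start of IFITM1 and IFITM3 (GRCh38.p14) are printed because these neighbours moved together while most of the interferon list did not. Capitals mark GAAA, any 2 bases and GAAA again, the core of the interferon-stimulated response element, searched on both strands. Of 35116 promoter windows of this length 3.02% held a match, as did 2% of the 1150 windows of members below and 2.86% of the 490 windows of members above. IFITM1 (chr11:313790-314039, plus strand) had 1 match and IFITM3 (chr11:320861-321110, minus strand) had 2.
IFITM1: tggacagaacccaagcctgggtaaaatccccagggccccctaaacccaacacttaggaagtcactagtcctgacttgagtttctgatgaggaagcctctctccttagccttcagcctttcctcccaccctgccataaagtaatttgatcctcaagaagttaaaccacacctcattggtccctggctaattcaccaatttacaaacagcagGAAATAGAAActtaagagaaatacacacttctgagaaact
IFITM3: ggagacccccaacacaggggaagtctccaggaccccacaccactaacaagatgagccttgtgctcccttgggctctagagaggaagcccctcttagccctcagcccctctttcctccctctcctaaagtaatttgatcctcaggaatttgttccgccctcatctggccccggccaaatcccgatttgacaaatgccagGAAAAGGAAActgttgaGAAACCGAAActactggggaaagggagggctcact

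Metallothioneins are small cysteine-rich proteins that bind zinc and copper, and their genes form a cluster on chromosome 16. Of 6 tested, 4 fell (66.7%, against 7.92% of all genes), none rose, and 5 were members below (83.3%, against 6.03%). The median difference of -1.17 stayed between -1.17 and -1.07 under each scaling tried. MT2A, the most abundant, was at 3068, 2764 and 2726 TPM in parental, 1269 to 1660.2 TPM in Holoclone and 1378 to 1630.5 TPM in Paraclone cells. MT1E was at 264 to 378 TPM in parental, 162 to 231 TPM in Holoclone and 74.2 to 78.4 TPM in Paraclone cells.

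The largest differences of the cluster were those of MT1A and MT1M. MT1A was at 81.5, 105 and 75.1 TPM in parental, 19.3 to 24.3 TPM in Holoclone and 5.58 to 12.6 TPM in Paraclone cells. MT1M was at 22.5, 18.7 and 18.5 TPM in parental and 9.93, 11.9 and 10.9 TPM in Holoclone cells, and was listed at 0 in the 3 Paraclone libraries. MT1X was a member (70.4 to 75.7 TPM in parental, 37.7 to 62.4 TPM in the clones) but did not pass the test (-0.53 ± 0.32, adjusted p = 0.338), and MT1F overlapped. The call of MT2A was lost without parental replicate 1 (adjusted p = 0.0585). The family is close in sequence, and reads may have been shared between its genes.

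The promoter windows of MT2A and MT1X are shown because the family carries repeated copies of the metal response element, here searched as TGCACNC and TGCGCNC on both strands and marked by capitals. MT2A (chr16:56608334-56608583, plus strand) held 7 matches and MT1X (chr16:56682220-56682469, plus strand) held 4. At least 1 match was present in 24.8% and at least 4 in 0.37% of the 35116 windows, and at least 1 in 29.8% of the windows of members below and 33.3% of those of members above.
MT2A: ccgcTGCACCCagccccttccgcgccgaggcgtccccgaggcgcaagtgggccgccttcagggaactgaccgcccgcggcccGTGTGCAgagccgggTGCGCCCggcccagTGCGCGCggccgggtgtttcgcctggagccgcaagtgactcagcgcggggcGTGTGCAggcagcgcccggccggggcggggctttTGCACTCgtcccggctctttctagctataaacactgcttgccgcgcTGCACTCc
MT1X: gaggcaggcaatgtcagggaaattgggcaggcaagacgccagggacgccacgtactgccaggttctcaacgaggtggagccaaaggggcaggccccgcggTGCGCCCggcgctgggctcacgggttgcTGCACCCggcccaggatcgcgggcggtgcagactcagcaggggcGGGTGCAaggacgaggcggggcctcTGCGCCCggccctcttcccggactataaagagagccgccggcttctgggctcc

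The calls counted here come from the contrast that also defines the members, so they describe the lists and test nothing beyond them. In the homeobox (HOX) genes, which set position along the body axis in development, losses outnumbered gains. Of 30 tested, 1 rose (3.33%, near the 3.79% of all genes) and 9 fell (30%, against 7.92%). There was 1 member above and 9 below (30%, against 6.03% of all genes). The median was -0.28, and between -0.28 and -0.22 under the other scalings, where 6 or 7 fell. Beside HOXC12, the members included HOXD10 (1.05 to 1.96 TPM in parental, at most 0.0953 TPM in the clones) and HOXA13 (1.05 to 1.66 TPM in parental, at most 0.3 TPM in the clones). HOXA3 was the member above, at 16.4 to 19.7 TPM in parental, 30.2 to 36.5 TPM in Holoclone and 21.6 to 24.3 TPM in Paraclone cells.

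Genes of the WNT pathway, which steers cell fate through β-catenin and through planar polarity, changed in both directions. Of 40 tested, 4 rose (10%, against 3.79% of all genes), 8 fell (20%, against 7.92%) and 28 did not pass. There were 3 members above (7.5%, against 2.58% of all genes) and 4 below (10%, against 6.03%). The ligand WNT5B was at 38, 57.9 and 47.6 TPM in parental, 14.9 to 21.4 TPM in Holoclone and 5.58 to 6.85 TPM in Paraclone cells, and the receptor FZD7 at 24.1 to 29.2 TPM, 9.26 to 11.4 TPM and 1.76 to 2.49 TPM. The co-receptor ROR2 also fell in the mean of the clones, but only the Paraclone was apart from parental (8.19 to 11.3 TPM in parental, 9.15 to 11.3 TPM in Holoclone, at most 0.038 TPM in Paraclone cells).

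Of 23 Notch pathway genes, 2 rose (8.7%, against 3.79% of all genes), 6 fell (26.1%, against 7.92%) and 15 did not pass. With upper quartile or median-of-ratios scaling only 2 fell. RBPJ, the DNA-binding partner of cleaved Notch, was at 26.3 to 29 TPM in parental and 16.5 to 21.4 TPM in the clones (-0.49 ± 0.1). NUMB, an inhibitor of Notch, was at 37.9 to 41.4 TPM in parental, 62.1 to 69.7 TPM in Holoclone and 42.8 to 44.7 TPM in Paraclone cells (0.45 ± 0.07). In the TGF-β family, BMP7 was at 9.51 to 10.4 TPM in parental, 1.5 to 3.14 TPM in Holoclone and at most 0.321 TPM in Paraclone cells, while the inhibitory SMAD7 was at 4.24 to 6.32 TPM in parental and 8.94 to 15.7 TPM in the clones. Of the 35 genes of that list 3 rose (8.57%, against 3.79% of all genes) and 3 fell (8.57%, near the 7.92% of all genes).

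Lysosomes are the compartment for degradation. Of 25 lysosomal and autophagy genes tested, 7 rose (28%, against 3.79% of all genes), none fell and 18 did not pass, and 6 (24%) were members above against 2.58% of all genes. The membrane protein LAMP1 was at 71.6, 71.8 and 72.1 TPM in parental, 130.4 to 158 TPM in Holoclone and 125 to 148 TPM in Paraclone cells, and CD63 at 344 to 355 TPM, 411 to 429 TPM and 552 to 585 TPM. The hydrolase CTSA was a member above with a difference of 0.62 ± 0.13. The counts with the other scalings were 7 or 8 higher, with medians of 0.23 to 0.33.

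The list of 31 NF-kB and inflammatory genes had 4 that rose (12.9%, against 3.79% of all genes), CCL2, CXCL1, CXCL8 and TNFAIP2. Its other 27 genes did not pass. The list had 5 members above (16.1%, against 2.58% of all genes). CSF1, the growth factor of macrophages, was a member above that did not pass (43.3 to 54.3 TPM in parental, 63.2 to 90.6 TPM in the clones, adjusted p = 0.176), and it was lower in the Panc89 clones (-1.79 ± 0.3, adjusted p = 0.00067). The summed level of the 14 leukocyte markers given above was highest in Paraclone cells, as CCL2 and CXCL1 were. However, 12 of the 14 stayed under 1 TPM in every Panc1 library. PTPRC, CD3E, CD79A, TYROBP and LYZ did not exceed 0.377 TPM. The 2 markers of the list that were tested had clone differences of -0.02 and 0.04. These differences average both clones, while the summed level lay below parental in Holoclone cells and above it in Paraclone cells. The part of the leukocyte markers in these results was not tested.

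Matrix genes changed in both directions. Of 22 collagens, 5 rose (22.7%, against 3.79% of all genes) and 6 fell (27.3%, against 7.92%). The 4 members (18.2%) were all below, against 6.03% of all genes. Among them were COL1A1 (11.8 to 14.3 TPM in parental, 6.32 to 9.19 TPM in Holoclone, 0.923 to 1.13 TPM in Paraclone cells) and COL5A1 (3.45 to 4.89 TPM in parental, 0.749 to 1.29 TPM in the clones). COL1A1 is itself one of the fibroblast markers summed above. Of 28 integrins and laminins, which anchor cells to basement membrane, 7 rose (25%, against 3.79% of all genes). In this list 2 fell (7.14%, near the 7.92% of all genes). There were 4 members above (14.3%, against 2.58%) and 1 below (3.57%, against 6.03%). LAMB1 was at 26.8 to 31.8 TPM in parental, 41.8 to 55.1 TPM in Holoclone and 119 to 140.3 TPM in Paraclone cells, and ITGA6 at 55.1 to 60.8 TPM, 67 to 68.7 TPM and 96.1 to 119 TPM. Non-muscle myosin MYH10 was a member below mostly through the Paraclone (15 to 30.2 TPM in parental, 12 to 13.3 TPM in Holoclone, at most 0.311 TPM in Paraclone cells).

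Of 26 epithelial genes, 1 rose (3.85%, near the 3.79% of all genes) and 8 fell (30.8%, against 7.92%). Only 2 of them were members below (7.69%, against 6.03% of all genes). Of 24 mesenchymal genes 4 rose (16.7%, against 3.79%) and 1 fell (4.17%, against 7.92%). Nuclear-encoded genes of oxidative phosphorylation had small differences. Of 38, 6 were lower (15.8%, against 7.92% of all genes) and 11 were members below (28.9%, against 6.03%). SDHD, a subunit of complex II, had 236 to 272 TPM in parental and 138 to 225 TPM in the clones, and NDUFA10 of complex I had 119 to 122 TPM and 81.4 to 108 TPM. With median-of-ratios scaling the members below of this list numbered 4, and 5 genes fell and 1 rose. Of 32 cell cycle genes none passed, and none had an unadjusted p under 0.05 in limma.

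**Figure D2:**
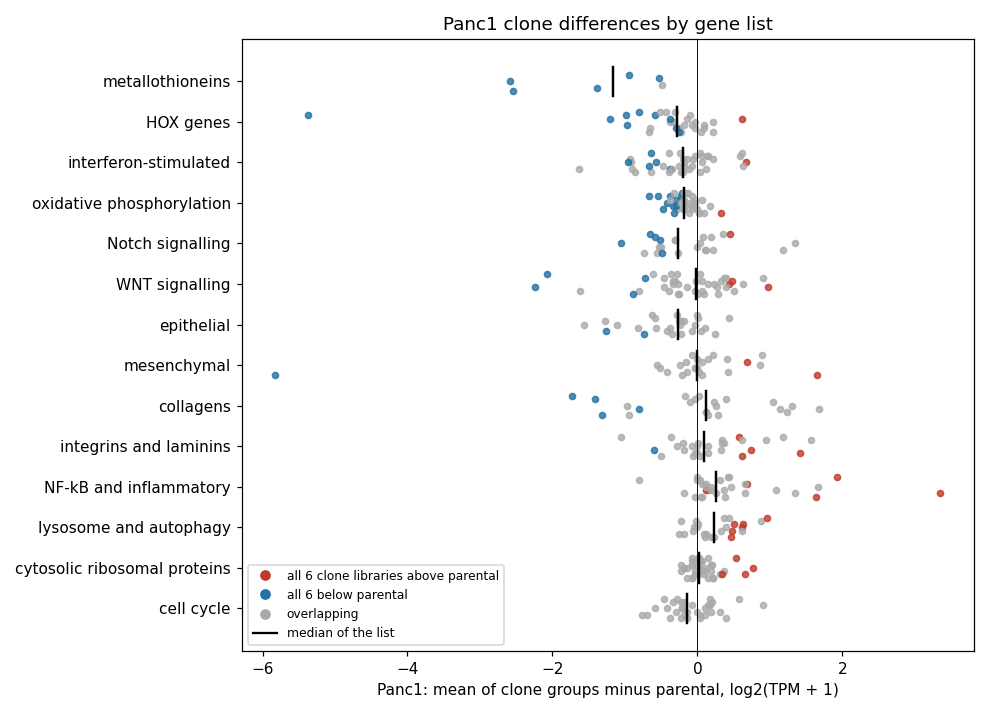
Panc1 clone difference (log2(TPM + 1), horizontal axis) of the tested genes of 14 lists, 1 point per gene, coloured by whether all 6 clone libraries lay above or below the parental libraries, with the list's median as a black bar. The metallothioneins sit farthest to the left as a group (median -1.17), while lysosomal genes (median 0.23) lie mostly to the right of 0. SPARC (-5.83) and HOXC12 (-5.37) lie at the left end and CCL2 (3.35) at the right end.

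Members were unevenly spread over the genome, although the rule did not use position. Positions were taken from GENCODE 44 on GRCh38 for 15875 of the tested genes. Chromosome X had 66 of 509 genes below (13%), chromosome 5 had 73 of 710 (10.3%) and chromosome 1 had 151 of 1629 (9.27%), against 6.03% of all genes. Chromosome 18 had 27 of 220 genes above (12.3%), chromosome 22 had 32 of 367 (8.72%) and chromosome 13 had 23 of 281 (8.19%), against 2.58%. For chromosome 22 the count above was 18 with upper quartile scaling and 39 with median-of-ratios scaling. The shares below on chromosomes X, 5 and 1 were 10.2%, 7.04% and 7.92% with upper quartile scaling. With median-of-ratios scaling they were 9.63%, 6.2% and 7%. The members below over all genes also fell with these scalings, from 970 to 776 and 752.

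**Figure D3:**
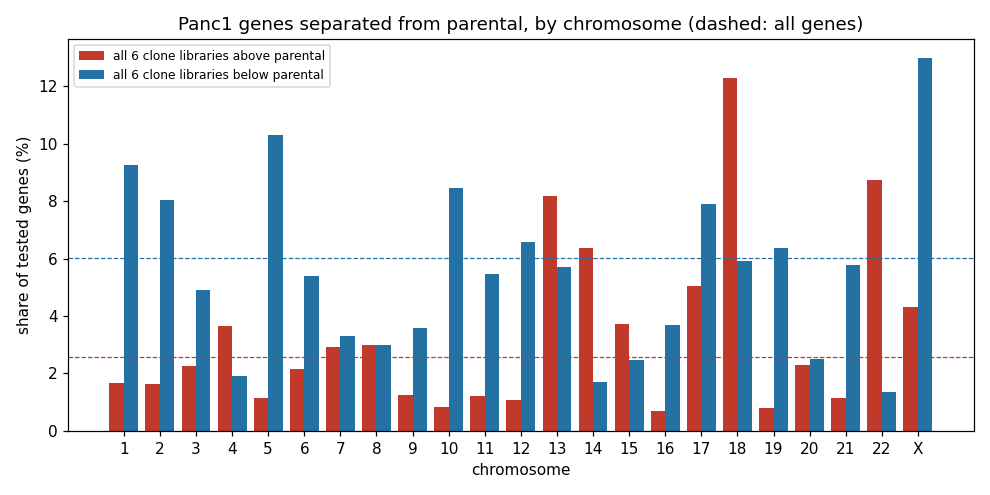
Share of tested genes on each chromosome whose 6 Panc1 clone libraries all lay above (red) or all lay below (blue) the 3 parental libraries, in percent, with the shares over all genes (2.58% and 6.03%) as dashed lines. The highest red bar is chromosome 18 (12.3%) and the highest blue bar chromosome X (13%).

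Most members lay outside the stretches described next, and the 3 windows with over 30% of their genes on 1 side held 43 of them. In windows of 10 Mb with at least 20 tested genes (260 windows), the median window had 1.67% of its genes above and 4.28% below. In chrX:10000001-20000000, 23 of 38 genes (60.5%) were below and none above. The median difference there was -0.52 for Holoclone and -0.59 for Paraclone against parental, so that the clones were alike, and 20 of the 23 members differed by less than 1. The same window in Panc89 had a median clone difference of 0.06 and no gene below. With upper quartile or median-of-ratios scaling 18 of the 38 genes (47.4%) were below.

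Beyond and within this window, 11 neighbouring tested genes in a row were members below, from PHKA2 to SMS (chrX:18892298-21994837), with differences of -1.77 to -0.52. PDHA1, a subunit of pyruvate dehydrogenase, was at 198, 199.6 and 179 TPM in parental, 105, 116 and 118 TPM in Holoclone and 102 to 121 TPM in Paraclone cells. SMS, spermine synthase, was at 319 to 324 TPM in parental, 149 to 230.0 TPM in Holoclone and 155 to 232 TPM in Paraclone cells. The microtubule-associated MAP7D2 had the largest loss of the row, at 9.29 to 12 TPM in parental and 1.81 to 3.26 TPM in the clones. In SH3KBP1 the clones differed, at 69.9 to 85.2 TPM in parental, 20.4 to 26.8 TPM in Holoclone and 59.8 to 68.5 TPM in Paraclone cells.

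On chromosome 18 the direction was the opposite. In chr18:40000001-50000000, 11 of 24 genes (45.8%) were above and in chr18:50000001-60000000, 9 of 26 (34.6%), with no gene below in either window, and the medians were 0.55 and 0.68 for Holoclone and 0.4 and 0.28 for Paraclone. With the other scalings the count above was 11 to 14 and 9 to 15. A row of 6 neighbours, NEDD4L, MALT1, ZNF532, SEC11C, LMAN1 and PMAIP1 (chr18:58044226-59904305), were all members above. The median Panc89 clone difference of these 6 genes was 0.38, against 0.1 and 0.08 over the 10 Mb windows and 0.03 over all genes. LMAN1, a cargo receptor of the secretory pathway, was at 30, 34.9 and 32.5 TPM in parental, 45.6 to 49 TPM in Holoclone and 64.9 to 74.3 TPM in Paraclone cells.

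Chromosome 17 was split. In chr17:1-10000000, 48 of 189 genes (25.4%) were below and 1 above, and in chr17:10000001-20000000, 13 of 77 (16.9%) were below. In chr17:30000001-40000000, 19 of 101 genes (18.8%) were above and none below, with medians of 0.6 for Holoclone and 0.13 for Paraclone. CCL2, the member with the highest difference, lies in this window. In Panc89 the median clone difference was 0 in both the first and the last of these windows. With median-of-ratios scaling 35 of the 189 genes were below and 34 of the 101 above.

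Of 42 cytosolic ribosomal protein genes 4 rose (9.52%, against 3.79% of all genes) and 38 did not pass, and the median of the list was 0.02. RPL23 (chr17:38847860-38853764), RPL19 (chr17:39200283-39204840) and RPL27 (chr17:42998273-43002959) were on chromosome 17, and RPS29 was on chromosome 14. RPL27 was at 636 to 674 TPM in parental, 864 to 1087 TPM in Holoclone and 1229 to 1322 TPM in Paraclone cells (0.77 ± 0.1). The call of RPS29 (0.34 ± 0.11) was lost in 12 of the alternatives tried. DNA was not analysed here, and whether the DNA of the clones differs from that of the parental line in these stretches was not tested.

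**Figure D4:**
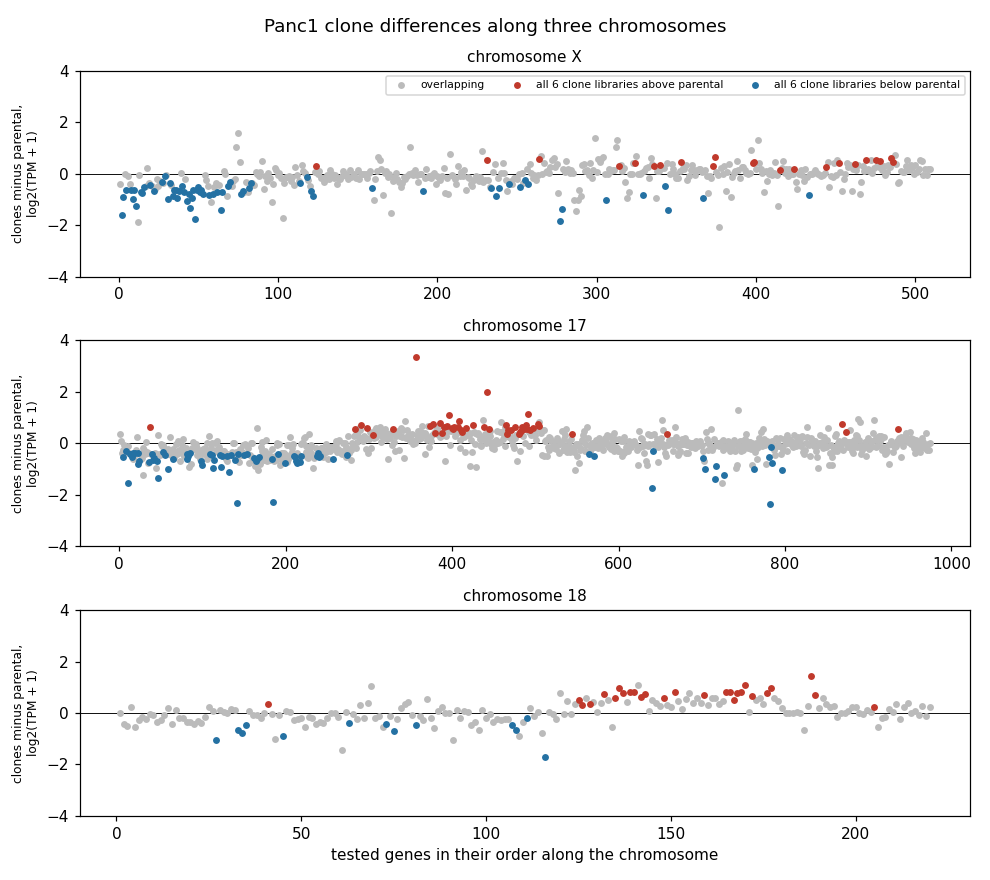
Panc1 clone difference (log2(TPM + 1), vertical axis) of the tested genes of chromosomes X, 17 and 18 in their order along the chromosome, 1 point per gene, coloured for members above (red) and below (blue). The blue points crowd at the start of X and of 17, where the first 10 Mb of chromosome 17 has 48 of 189 genes below, and the red points crowd in the middle of 17 and the second part of 18.

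Whether the same genes differed between clones and parental cells in another line was asked of the 9 Panc89 libraries. These took no part in choosing the members. There, 9.7% of the tested genes were called higher and 6.92% lower in the clones. Of the 415 members above in Panc1, 64 (15.4%) were higher and 40 (9.64%) lower in Panc89. Of the 970 members below, 102 (10.5%) were lower and 86 (8.87%) higher. The median Panc89 clone difference was 0.07 over the members above and 0 over the members below, against 0.03 over all genes.

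By the rule of separation itself, 6.8% of tested genes had all 6 Panc89 clone libraries above and 4.54% all below the Panc89 parental libraries. For members above these shares were 10.1% (42 genes) above and 5.06% (21 genes) below, and for members below 7.42% (72 genes) below and 6.08% (59 genes) above. Most members of either direction therefore had no separation in Panc89. The filter took 1 TPM in any 3 of the 18 libraries, so a member could enter through its Panc1 libraries alone. Such a gene can show little difference or separation in Panc89, as with MT1A and MT1M, listed at 0 in all 9 Panc89 libraries. The Panc89 shares and medians of the members were not restricted to genes expressed in that line.

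A few of the largest Panc1 differences recurred. IGFBP2 was at 13.1 to 21.4 TPM in Panc89 parental cells, 5.22 to 6.64 TPM in Panc89 Holoclone and 0.125 to 0.214 TPM in Panc89 Paraclone cells (-2.67 ± 0.18, adjusted p = 5.76e-08), the same order of groups as in Panc1. With levels given for parental, Holoclone and Paraclone cells in turn, NPW (42 to 43.5 TPM, 9.59 to 22.9 TPM and 1.95 to 4.37 TPM) and ALPG (60.9 to 73 TPM, 0.339 to 1.38 TPM and 3.87 to 5.46 TPM) were also lower, ALPG with the Holoclone lowest where in Panc1 the Paraclone was lowest, and SEMA3A was higher (27 to 36.4 TPM, 52.1 to 61.3 TPM and 36.6 to 47.6 TPM).

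Genes picked for a difference of the same direction in both lines added the T-cell costimulatory ligand CD70 and the calcium channel CACNA1H on the lower side. CD70 was at 61.8 to 74.4 TPM in Panc1 parental and 11.4 to 56.2 TPM in the Panc1 clones, and at 93.1 to 119.9 TPM in Panc89 parental and 1.31 to 8.45 TPM in the Panc89 clones. On the higher side were MALT1, a protease of NF-kB signalling (0.81 ± 0.2 in Panc1 and 1.08 ± 0.2 in Panc89), DBNDD2 (0.64 ± 0.14 and 0.68 ± 0.14) and HTATIP2 (0.73 ± 0.14 and 0.6 ± 0.14). These values are a description, since both lines chose these genes. MALT1 did not pass in Panc1 without parental replicate 1 (adjusted p = 0.0922).

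Others were at low levels in Panc89. SPARC, HOXC12, CES1 and CCL2 did not exceed 0.469 TPM in any Panc89 library. NES did not exceed 1.4 TPM there. Of the genes expressed in Panc89, IFITM2 was lower in its clones too (38.5 to 69.8 TPM in parental, 5.87 to 57.1 TPM in the clones, -1.63 ± 0.27, adjusted p = 0.000534), although 1 Paraclone library overlapped. IFITM1 did not pass in Panc89 (-1 ± 0.43, adjusted p = 0.131 in limma). It was at 1529 to 2930 TPM in parental, 400 to 863 TPM in Holoclone and 1622 to 2803.5 TPM in Paraclone cells. TNFAIP2, higher in the Panc1 clones, was lower, at 275 to 480.2 TPM in parental and 122 to 216 TPM in the clones (-1.23 ± 0.19, adjusted p = 0.000304).

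Tested directly, the clone difference in Panc89 minus that in Panc1 passed in 2547 genes (15.8%), 1644 of them higher in Panc89. The share of higher calls was 64.5% with the deposited scaling and 46.1% with median-of-ratios scaling, and the median over all genes moved from 0.12 to 0.01.

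**Figure D5:**
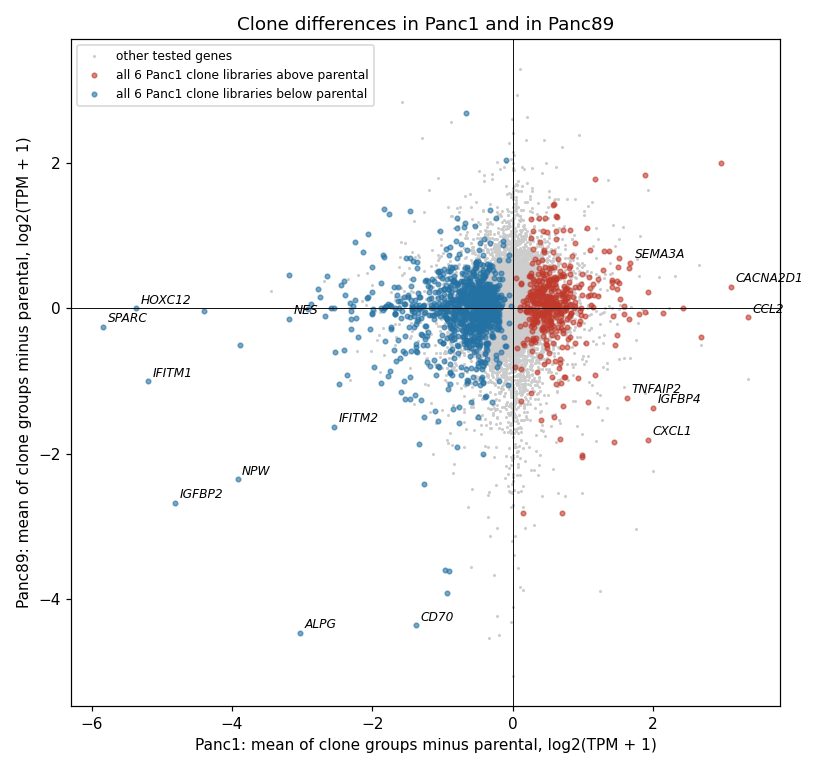
Clone difference of each tested gene in Panc1 (horizontal axis) and in Panc89 (vertical axis), both as log2(TPM + 1), 1 point per gene, with members above in red, members below in blue and other genes in grey. Members spread along the horizontal axis around 0 in Panc89 (medians 0.07 and 0), with IGFBP2, NPW and ALPG at the lower left, and TNFAIP2, IGFBP4 and CXCL1 at the lower right.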

How the data were processed

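Stranded mRNA libraries (18) came from the parental line, the Holoclone and the Paraclone of Panc1 and of Panc89, with 3 passages a group. Per the labels, the authors quantified transcripts with kallisto 0.46.1 on GRCh38 and deposited gene-level scaled TPM values as log2(TPM + 1). No counts were used here, so depth was unknown and no counting interval is given.

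Values were turned back to TPM for filters and printed levels. Groups came from the sample titles. The 16093 genes that reached 1 TPM in 3 or more libraries were fitted with limma 3.58.1 in R 4.3.3 (6 group means, all 18 libraries, trend, pseudocount 1, Benjamini-Hochberg adjusted p under 0.05), and the procedure was tested on simulated data. A log2 difference of log2(TPM + 1) understates the change of low genes. Membership was counted directly from the libraries. Members chosen by the Panc1 values are described by value and SE, and the Panc89 libraries served as measurements outside the choice.

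Genes were named from members that passed limma with at least 10 TPM in the higher of parental and clone means (548 genes): the 10 highest and 10 lowest, those with clones within 0.5 of each other (8 each way), those separated the same way in Panc89 (5 each way), up to 4 per list, and 8 study markers. The stretches of chromosomes, the row neighbours and other genes described were chosen after their values were seen. The members and lists were chosen with earlier results of these data known. Chromosome positions were from GENCODE 44, promoters from RefSeq. Other scalings, filters, pseudocounts, blocks and left-out libraries were tried. The labels name no sequencing batch. A gene that the naming rule selects is not reported here.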

Additional observations from a re-analysis of the deposited data

Results flagged for a closer look

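The clone difference differed between the lines in 2547 genes by the test of Panc89 minus Panc1. Among the genes that the naming rule selects, 4 were higher in the Panc1 clones and lower in the mean of the Panc89 clones with both tests passed: CXCL1 (difference between the lines -3.73), IGFBP4 (-3.37), TNFAIP2 (-2.86) and SPRY1 (-1.38). In 3 the directions were the opposite: PKP3 (1.62), MDM2 (0.95) and ABCC1 (0.87). This test contains the Panc1 values by which these genes were chosen. SPRY1 in Panc89 was at 46.1 to 65.6 TPM in parental, 36.3 to 83.6 TPM in Holoclone and 17.3 to 20.8 TPM in Paraclone cells. MDM2 was at 51.1 to 62.6 TPM, 110 to 136.5 TPM and 45.9 to 59.9 TPM. ABCC1 was at 21.7 to 23.5 TPM, 37.1 to 43.7 TPM and 23.3 to 26.7 TPM. Only the Paraclone was thus apart from parental for SPRY1, and only the Holoclone for MDM2 and ABCC1. The Panc1 call was lost in 11 of the alternatives tried for MDM2 and in 5 for SPRY1. In Panc89, CXCL1 was at 153, 24.8 and 126 TPM in parental and 14.4 to 30.6 TPM in the clones, so that parental replicate 2 lay within the range of the clones. IGFBP4 was at 3.37 to 3.7 TPM in Panc89 parental and 0.156 to 1.54 TPM in the clones, with no overlap.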

How the results depend on the processing

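Of the counts given, the 1885 calls in Panc1 became 438 with a log2 difference over 1 required, 947 at an adjusted p under 0.01 and 471 with each clone passing on its own, and 1108 to 1867 when 1 Panc1 library was left out. The required difference over 1 also lowered the Panc89 calls to 685, the calls between the lines to 1093 and the calls of Holoclone against Paraclone, an alternative added after seeing the data, to 1860. Leaving out 1 library gave 1601 to 3139 calls in Panc89 (1606 without Panc89 parental replicate 1, 1601 without replicate 3), 1749 to 2917 between the lines and 4763 to 5808 between the Panc1 clones. The members above numbered 651 with median-of-ratios scaling and 454 to 854 with 1 Panc1 library left out, and the members below 1007 to 1655. With fewer libraries to separate, more genes meet the rule. The other alternatives kept these counts within 1.5 times. Among the 94 named genes, no difference changed direction with a call, and of the pairs of gene and setting 126 lost a call, 1 gained a call (SOX2 with Panc1 libraries only) and 1283 stayed on their side of the threshold, those of markers never called included. The absence of counts limits the reading of genes near 0 TPM.

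No pairing of the samples by replicate number was seen. Deviations of same-numbered Panc1 libraries correlated at -0.281 to 0.102, and no Panc1 library correlated best with its own number in both other groups. These values rest on 3 libraries a group and cannot decide whether the samples were paired. With the replicate block the calls were 1434 in Panc1, 2127 in Panc89, 2011 between the lines and 5553 between the Panc1 clones.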
